A study of Mus musculus with 24 samples.

Results

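The comparison described here set 4 mouse tumours titled LAP B-ALL against 5 tumours titled Blnk preB-ALL, chosen by those titles, which is 9 of the 24 samples of the series. The LAP B-ALL tumours arose in mice carrying a transgene for LAP, the form of C/EBPβ (gene Cebpb) that activates transcription, and were labelled B-cell acute lymphoblastic leukaemia (B-ALL). The Blnk preB-ALL tumours arose in mice with a homozygous knockout of Blnk and were labelled pre-B-cell leukaemia (preB-ALL), so that genotype and tumour type differ together between these groups and cannot be told apart. Another 7 tumours, 4 LAP preB-ALL tumours from LAP transgenic mice and 3 LAP/Blnk preB-ALL tumours from mice with both changes, entered the fit to help estimate the spread, and 8 arrays of a cell line were not used here. Transcripts were measured on Affymetrix arrays from total RNA. The sources used here do not give the promoter that drives the transgene, the strain, age and sex of the mice, the tissue taken, the share of tumour cells in it, or whether the tumours of a group were from separate animals. The p-values therefore measure the spread between these samples.

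BLNK is the adaptor protein that links the pre-B-cell receptor, and later the B-cell receptor, to downstream kinases and phospholipase. Pre-B cells display an immunoglobulin heavy chain with a surrogate light chain made of VpreB and λ5, and use the Rag1 and Rag2 recombinase to join the gene segments of the light chain. As B cells mature they stop making the surrogate light chain and the recombinase, and gain surface proteins for antigen presentation such as MHC class II. C/EBPβ is best known for driving myeloid and inflammatory genes, and its forced activity in B-cell precursors can turn on myeloid programmes.

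Values are the authors' log ratios, taken here as log2, of a gene in 1 tumour to its median over the 16 tumours, so 1 unit is a 2-fold change. They give no expression level and no detection call, and genes cannot be ranked by level from them. A difference is the LAP B-ALL mean minus the Blnk preB-ALL mean, fitted with limma over 17097 genes, and a gene was called when its Benjamini-Hochberg adjusted p was below 0.05. In such bulk samples fewer cells of a type and less RNA per cell cannot be told apart.

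The transgene and knockout genes were examined first. The Cebpb probe set with the largest spread read 0.29, 0.90, 0.14 and -3.11 in LAP B-ALL tumours 1 to 4, and -3.99, -3.33, -3.19, -4.50 and -1.94 in Blnk preB-ALL tumours 1 to 5. LAP B-ALL 1, 2 and 3 lay above every Blnk preB-ALL tumour, and the tumour labelled LAP B-ALL 4 lay among them. The difference was 2.94 (SE 1.00) with an exact two-sided permutation p of 0.0317, or 0.127 after adjustment over the 4 Cebpb and Blnk probe sets, against a smallest possible p of 0.0159. The other Cebpb probe sets differed by 1.26 (exact permutation p = 0.159) and 0.07 (exact permutation p = 0.587), and the Blnk probe set by 0.43 (SE 0.48, exact permutation p = 0.444). The sources used here do not say where these probe sets lie relative to the transgene or to the deletion in Blnk, and probes outside the altered sequence would check nothing.

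The tumours labelled LAP B-ALL were not alike across genes. Over all genes, LAP B-ALL 1, 2 and 3 correlated with each other at Pearson r of 0.814 to 0.856, while the tumour labelled LAP B-ALL 4 correlated with them at -0.0715 to -0.0304 and with the Blnk preB-ALL tumours at -0.0822 to 0.288. LAP B-ALL 1 to 3 resembled the tumour labelled LAP preB-ALL 4 as closely as each other, at r of 0.815 to 0.857, and LAP preB-ALL 2 less closely, at 0.284 to 0.391. The Blnk preB-ALL tumours correlated with each other at -0.234 to 0.285. These coefficients are across genes, which are not independent replicates, and all tumours share the median they were divided by. If LAP B-ALL 1 to 3 share a source, which the labels do not say, their p-values are too small. The Cebpb value and these correlations of the tumour labelled LAP B-ALL 4, and the correlations of the tumour labelled LAP preB-ALL 4, go against their labels. Not all values did so. Ms4a1 (1.85) and Cd74 (1.30) in the former lay above every Blnk preB-ALL tumour. Cebpb in the latter was 0.19, near LAP B-ALL 1 and 3 (0.29 and 0.14) and LAP preB-ALL 1 and 3 (0.03 and 0.05). Both groups carry the transgene, so that value cannot tell these labels apart. The tumour labelled LAP preB-ALL 4 also shared high red-cell markers with LAP B-ALL 1 to 3 (list medians of 4.16 and 3.20 to 4.36). The part of these markers in the correlations was not tested. Whether those labels are right was not tested, and if they are not, every value over all 4 LAP B-ALL tumours and the comparison with LAP preB-ALL mix groups. Most results are therefore given with and without the tumour labelled LAP B-ALL 4.

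**Figure D1:**
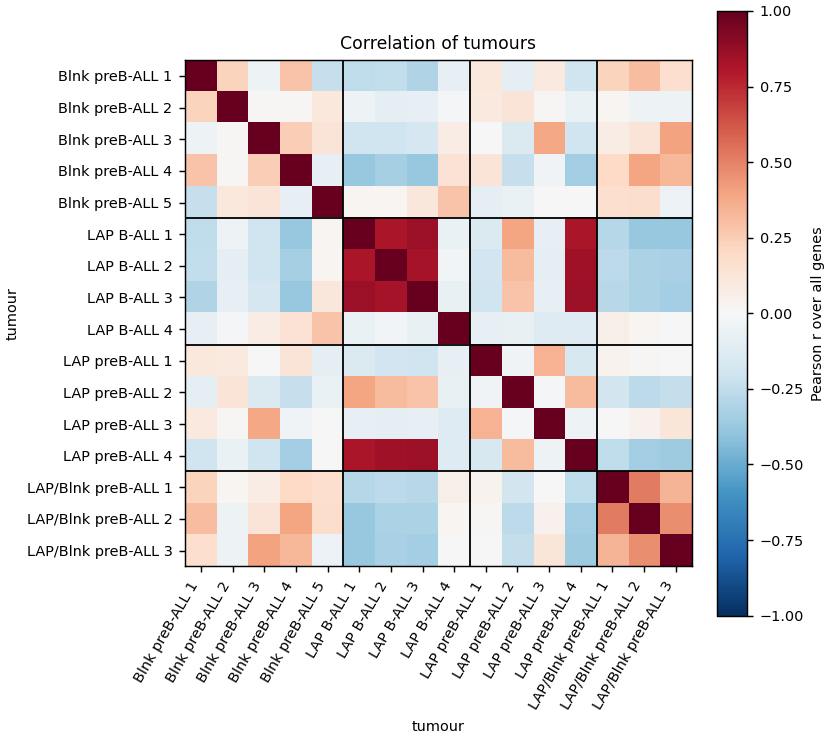
Pearson correlation over all 17097 genes between each pair of the 16 tumours (rows and columns, in label order and boxed by group; colour from -1 to 1). LAP B-ALL 1 to 3 and the tumour labelled LAP preB-ALL 4 form a block of high correlation (0.814 to 0.857), and the tumour labelled LAP B-ALL 4 lies outside it.

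Of the 17097 genes, 248 (1.45%) were called between LAP B-ALL and Blnk preB-ALL, 82 higher (0.48%) and 166 lower (0.971%) in LAP B-ALL. The groups did not overlap for 238 of the 248 and for 1456 of all genes (8.52%; 3.36% higher and 5.16% lower). An unadjusted p under 0.05 was reached by 3631 genes (21.2%). Among the called genes the median size of the difference was 0.88, and 41 were at least 2-fold higher and 56 at least 2-fold lower. The share called higher was 33.1%, and became 46.2% (122 higher, 142 lower) when each array was centred on its own median and 42% (76 higher, 105 lower) after quantile normalization. Without the tumour labelled LAP B-ALL 4, 1835 genes (10.7%) were called, 938 higher (5.49%) and 897 lower (5.25%). All 248 genes were called with the same sign in that fit, and many of its largest rises were red-cell genes, described below. Leaving out LAP B-ALL 1, 2 or 3 instead left 48, 56 and 47 calls, and leaving out Blnk preB-ALL 1 to 5 left 88, 83, 122, 81 and 496.

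**Figure D2:**
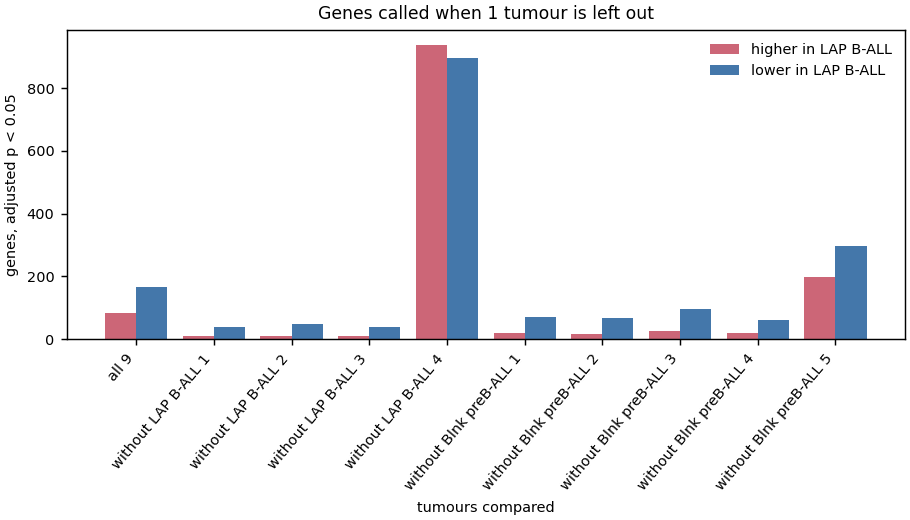
Number of genes called higher and lower in LAP B-ALL than in Blnk preB-ALL (vertical axis, genes with limma adjusted p below 0.05) with all 9 tumours and with each one left out (horizontal axis). The count was between 47 and 496 except without the tumour labelled LAP B-ALL 4, where it was 1835.

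The sex of the tumours was not balanced. Xist, the X-inactivation RNA, read 0.05 to 0.56 in all 4 LAP B-ALL tumours and 0.72 and 0.75 in Blnk preB-ALL 3 and 4, but -7.56, -6.95 and -7.48 in Blnk preB-ALL 1, 2 and 5. The Y-linked gene Eif2s3y was 5.70 and 5.34 in Blnk preB-ALL 2 and 5, 1.03 in Blnk preB-ALL 1 and -0.28 to 0.11 in the other 6. With the sex read from Xist as a term, 74 genes were called, and 1209 without the tumour labelled LAP B-ALL 4.

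Genes called with all 4 tumours are described first. The 15 largest rises and 15 largest falls were picked among called genes whose groups do not overlap, so that separation was set by the choice. Unnamed transcripts and rearranged receptor segments (17 of the called genes) were left out. The rises included genes of antigen processing, lipid and amino acid breakdown and transcription. Pira1, an activating immunoglobulin-like receptor, read 4.03, 4.09, 4.07 and 0.64 in LAP B-ALL 1 to 4 and -0.53, 0.17, -0.71, -0.91 and 0.04 in Blnk preB-ALL 1 to 5. It was 12.1-fold higher (difference 3.60, SE 0.78, adjusted p = 0.0406), and the tumour labelled LAP B-ALL 4 stood closer to the Blnk preB-ALL range than to the other LAP B-ALL tumours. Tmem163, a zinc transporter of vesicles, had no such gap. It read 2.03, 1.78, 1.58 and 2.21 in LAP B-ALL against -0.35, -0.07, -0.49, -0.31 and 0.17, a 4.32-fold rise (difference 2.11, SE 0.26, adjusted p = 0.00199). H2-DMb1, a chain of the chaperone that loads peptides onto class II molecules, rose 6.47-fold, and Ifi30, the thiol reductase that opens antigens for class II, rose 3.00-fold. Fah, the last enzyme of tyrosine breakdown, rose 8.94-fold, and Abhd6, a monoacylglycerol lipase, rose 7.33-fold. Ell2, a transcription elongation factor that in plasma cells favours the secreted form of immunoglobulin mRNA, rose 6.18-fold. Cdyl2, a chromodomain protein, Fbxo30, a ubiquitin ligase subunit, and Wdr61, a subunit of the Paf1 complex, rose 8.61-fold, 7.59-fold and 6.75-fold. The remaining ones were Srpk3 (a splicing-factor kinase, 5.91-fold), Dnaja4 (a co-chaperone, 3.86-fold), Wapl (which releases cohesin, 3.84-fold), Fgd2 (an activator of Cdc42, 3.24-fold) and Homer1 (a scaffold protein, 3.18-fold).

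The 15 largest falls, picked in the same way, included genes of cytokinesis, chromatin and signalling. Spsb4, the adaptor of a ubiquitin ligase, read -1.53, -2.00, -1.94 and -1.15 in LAP B-ALL 1 to 4 and 0.72, 1.38, 2.83, 1.33 and 1.20 in Blnk preB-ALL 1 to 5. It was 8.86-fold lower (difference -3.15, SE 0.36, adjusted p = 0.0012), with all 4 LAP B-ALL tumours more than 1 unit below the median. Its values in the LAP preB-ALL tumours, which carry the same transgene, were -0.72, -1.70, -1.48 and -1.89. Gfra1, the receptor subunit that binds GDNF, was 10.6-fold lower, but read -3.34, -3.86 and -3.79 in LAP B-ALL 1 to 3 and -0.10 in the tumour labelled LAP B-ALL 4. Kif20b, a kinesin of cytokinesis, read -1.24, -0.87, -1.15 and -1.46 in LAP B-ALL against 0.89, 1.19, 0.59, 1.28 and 0.12 in Blnk preB-ALL, a 3.99-fold fall (SE 0.23 on the log2 scale, adjusted p = 0.00131). Gas2l3, which links actin and microtubules during cytokinesis, was 3.58-fold lower. Epha2, an ephrin receptor, read between -0.86 and -0.75 in the 4 LAP B-ALL tumours and between 0.05 and 1.34 in Blnk preB-ALL. Smarcc1, a core subunit of the BAF chromatin remodelling complex, was 3.13-fold lower (adjusted p = 0.00733), and Zfp292, a zinc finger protein, 3.05-fold lower (adjusted p = 0.00261). Dnajc21, a co-chaperone of ribosome assembly, was 3.97-fold lower (adjusted p = 0.00826). Bcr, the partner of Abl1 in a known leukaemia fusion, fell 3.38-fold. Dusp7, a phosphatase of ERK kinases, and the signalling genes Map4k4 and Rapgef5 fell 4.98-fold, 2.91-fold and 2.85-fold. Rnf144a, Rnf169 and Csgalnact1 fell 4.01-fold, 3.16-fold and 3.33-fold.

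Of these 30 genes, 7 kept their call when any single tumour was left out. They were Tmem163 among the rises and Spsb4, Kif20b, Dnajc21, Epha2, Smarcc1 and Zfp292 among the falls, with a highest adjusted p of 0.0452 (Dnajc21, without LAP B-ALL 1). The other 23 kept their direction but lost the call in at least 1 of the 9 fits, with adjusted p up to 0.159, and the largest ratio between a gene's extreme differences was 1.43. Without LAP B-ALL 1, 2 or 3 the number not called was 23, 22 and 23, without Blnk preB-ALL 1 to 5 it was 21, 19, 20, 20 and 1, and without the tumour labelled LAP B-ALL 4 it was 0. For 20 of the 30 the array has several probe sets, and in 18 of the 20 all had the same sign, the exceptions being Wdr61 and Homer1. The sizes differed, with the smallest probe-set difference 0.02 for Srpk3, 0.08 for Wapl and -0.03 for Dnajc21. When a gene was instead read from the mean of its probe sets or from its first probe set, 8 of the 30 kept the call in both readings. Of the 7 above, Tmem163, Spsb4 and Epha2 did. From the first probe set, Kif20b gave -0.80 (adjusted p = 0.0682), Dnajc21 -0.10 (adjusted p = 0.609), Smarcc1 -0.87 (adjusted p = 0.0923) and Zfp292 -0.63 (adjusted p = 0.141), and from the mean Zfp292 gave -0.76 (adjusted p = 0.0585).

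**Figure D3:**
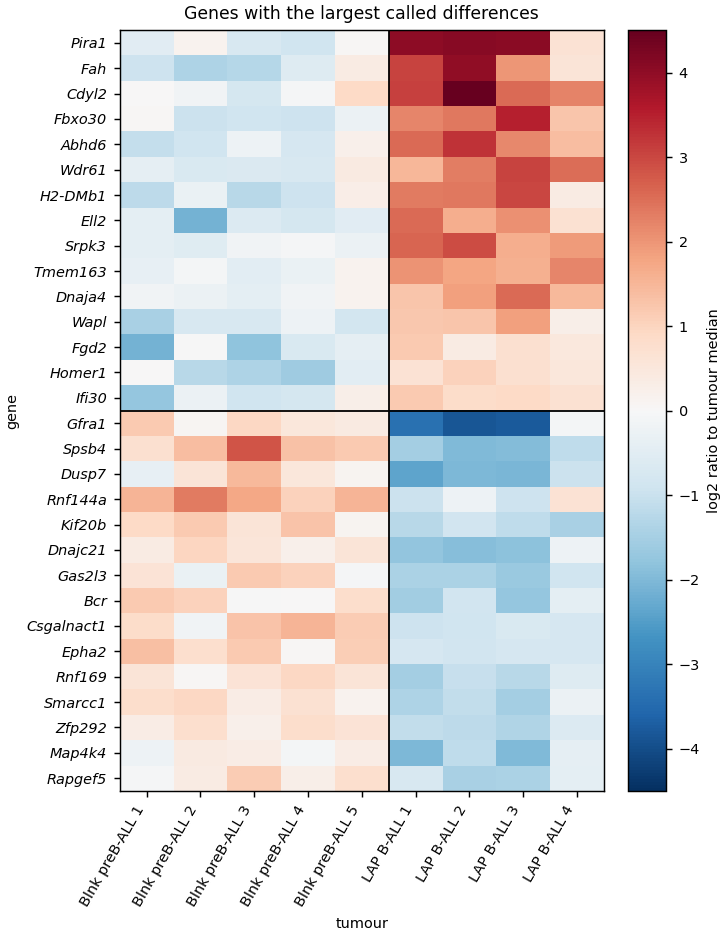
Log2 ratio to the tumour median (colour) of the 15 genes with the largest called rises and the 15 with the largest called falls (rows) in the 5 Blnk preB-ALL and 4 LAP B-ALL tumours (columns). The genes were picked among called genes whose groups do not overlap, leaving out unnamed transcripts and rearranged receptor segments. Tmem163, Spsb4, Kif20b and Epha2 have the same colour in all 4 LAP B-ALL tumours, while Pira1 and Gfra1 are near the Blnk preB-ALL values in the tumour labelled LAP B-ALL 4.

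The genes of the pre-B-cell receptor were far lower in LAP B-ALL 1 to 3 and not in the tumour labelled LAP B-ALL 4. Vpreb1 and Vpreb2 encode the VpreB chain of the surrogate light chain, and their upstream sequences are shown because the genes are near-identical copies, so their probe sets may share signal and each value alone is uncertain. The stretches come from RefSeq, build GRCm38.p6, within 250 bases before each start, at chr16:16869256-16869361 on the minus strand and chr16:17980315-17980420 on the plus strand. They were picked as the longest aligned stretch with few differences, so their near-identity was set by that choice. Upstream bases do not tell whether the probe sets, which read transcripts, share signal. Capitals mark the 2 bases of 106 at which they differ.
Vpreb1: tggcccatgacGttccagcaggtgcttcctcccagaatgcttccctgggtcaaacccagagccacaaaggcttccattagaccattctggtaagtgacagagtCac
Vpreb2: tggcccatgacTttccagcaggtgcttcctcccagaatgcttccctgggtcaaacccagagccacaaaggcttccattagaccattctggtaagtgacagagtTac

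Vpreb1 read -8.84, -8.78 and -8.97 in LAP B-ALL 1 to 3 and 0.14 in the tumour labelled LAP B-ALL 4, against -0.45 to 0.16 in the 5 Blnk preB-ALL tumours. The 3 low tumours stood far below the other 6, which lay together around the tumour median. The difference with all 4 was -6.60 (SE 2.11, adjusted p = 0.103), not called, and without the fourth it was -8.85 (SE 1.77, adjusted p = 0.0111). Vpreb2 followed the same split, at -8.40 to -7.95 in LAP B-ALL 1 to 3 and 0.35 in the tumour labelled LAP B-ALL 4. Vpreb3, which assists assembly of the receptor, read -5.27, -4.35, -6.54 and 0.88 in LAP B-ALL 1 to 4 and -0.41 to 0.59 in Blnk preB-ALL. The low values recurred outside the group, since Vpreb1 read -8.49 and -8.89 in LAP preB-ALL 2 and the tumour labelled LAP preB-ALL 4, and -0.11 and 0.01 in LAP preB-ALL 1 and 3. Of the 6 measured genes of this list 0 were called with all 4 tumours (1.45% of all genes), and 3 were called lower without the fourth (5.25% of all genes). Cd79a, the signalling chain shared by the pre-B and the B-cell receptor, read -0.50 to 0.65 in the 4 LAP B-ALL tumours and -0.30 to 0.29 in Blnk preB-ALL, a difference of 0.21 (SE 0.19, adjusted p = 0.564). Ighm, the heavy chain gene, differed by -1.04 (SE 0.82, adjusted p = 0.502), with 1 high value of 4.80 in Blnk preB-ALL 2.

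The recombinase genes divided the tumours in the same way. Rag1 read -6.13, -6.62, -6.11 and 2.00 in LAP B-ALL 1 to 4 and 0.49, -0.08, 1.27, 0.90 and 1.16 in Blnk preB-ALL 1 to 5. The tumour labelled LAP B-ALL 4 was thus the highest of the 9, and the other LAP B-ALL tumours the lowest. With all 4 the difference was -4.96 (SE 1.58, adjusted p = 0.102), and without the fourth -7.03 (SE 1.01, adjusted p = 0.0034). Rag2 read -3.91, -3.99, -3.79 and 2.13, with adjusted p of 0.131 and, without the fourth, 0.004. These genes are part of a list of recombination and early pro-B genes, which also holds receptors and regulators of progenitors (Flt3, Kit, Cd93, Erg, Sox4, Lef1 and Socs2). Of its 12 measured genes 0 were called with all 4 tumours (1.45% of all genes) and 8 were called lower without the fourth (5.25% of all genes). Of its recombination genes these were Rag1, Rag2, Xrcc6, a subunit of the Ku end-binding protein (-1.40), and Hmgb1, a cofactor of the recombinase (-0.78), and of its progenitor genes Erg (-4.58), Sox4 (-4.91), Lef1 (-3.32) and Socs2 (-4.25). The median of the whole list was -2.26 with all 4 tumours and -2.90 without the fourth, against -0.03 over all genes in both fits. Dntt, the terminal transferase, was below every Blnk preB-ALL tumour in all 4 LAP B-ALL tumours, at -0.67 to -0.11, but was not called (-1.88, SE 1.04, adjusted p = 0.317), and Blnk preB-ALL 3 stood at 5.79.

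**Figure D4:**
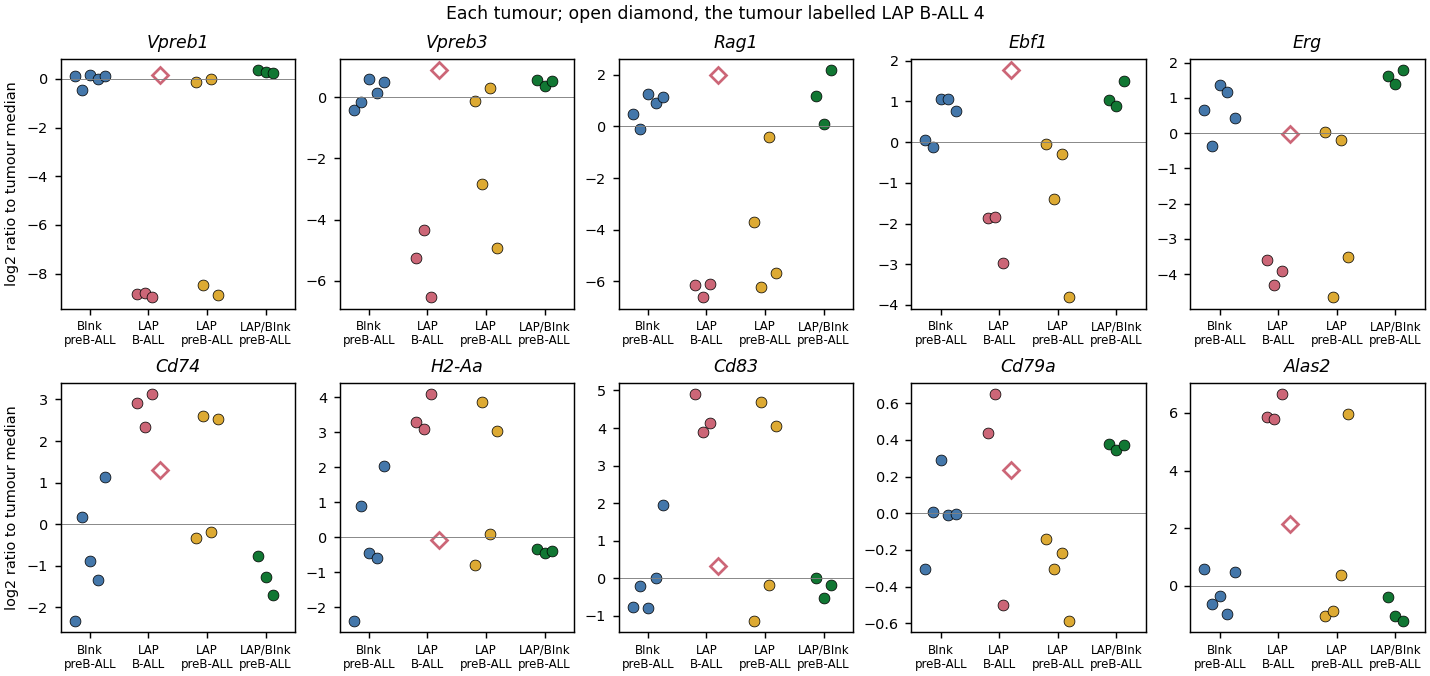
Log2 ratio to the tumour median (vertical axis) of 10 genes in each of the 16 tumours, by group (horizontal axis); the open diamond is the tumour labelled LAP B-ALL 4. Vpreb1, Vpreb3, Rag1, Ebf1 and Erg are low and Cd74, H2-Aa, Cd83 and Alas2 high in LAP B-ALL 1 to 3, while the diamond lies at 0.14 for Vpreb1 and 2.00 for Rag1.

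Transcription factors of the B lineage did not move as one list. Of 32 measured, 1 was called with all 4 tumours (1.45% of all genes). That was Spi1, which encodes PU.1 and is needed in both myeloid and B cells (0.76, SE 0.17, adjusted p = 0.0488). It read 0.16 to 0.74 in LAP B-ALL and -0.59 to -0.09 in Blnk preB-ALL, without overlap. Pax5, the factor that holds B-cell identity, differed by -0.10 (SE 0.29, adjusted p = 0.866). Without the fourth tumour, 4 were called higher and 4 lower (5.49% and 5.25% of all genes). The lower ones included Ebf1, a factor that specifies early B cells, at -1.87, -1.85 and -2.97 in LAP B-ALL 1 to 3, 1.76 in the tumour labelled LAP B-ALL 4 and -0.13 to 1.07 in Blnk preB-ALL (difference without the fourth -2.79, adjusted p = 0.0236). Bach2, a repressor of plasma cell genes, gave -3.97 (adjusted p = 0.0122) in that fit, and Zbtb32, a repressor found in activated and memory B cells, gave 3.59 (adjusted p = 0.00201). In the tumour labelled LAP B-ALL 4 Bach2 was above the Blnk preB-ALL range at 1.98, and Zbtb32 within it at -0.31. Erg, an ETS factor active in early B cells, read -3.59, -4.30 and -3.92 in LAP B-ALL 1 to 3, -0.04 in the tumour labelled LAP B-ALL 4 and -0.37 to 1.38 in Blnk preB-ALL. Irf4 and Irf8, which guide the exit from the pre-B stage, differed by -0.04 and -0.18 and were not called.

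Among the falls found without the fourth tumour was Enpep, the peptidase known on early B cells as BP-1. It read -7.11, -6.84 and -6.64 in LAP B-ALL 1 to 3, 1.61 in the tumour labelled LAP B-ALL 4 and 0.00 to 1.69 in Blnk preB-ALL (difference -7.84, adjusted p = 0.00406). Sox4, a factor of early B-cell development, gave -4.91 (adjusted p = 0.023). The metabolic enzymes Bcat1, of branched-chain amino acids, Elovl6, of fatty acid elongation, and Ddc, of aromatic amines, gave -5.31, -4.94 and -4.59 in the same fit (adjusted p of 0.0105, 0.00719 and 0.00434).

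The MHC class II genes, which present antigen to T cells, leaned one way. All 13 genes of the list had a positive difference, with a median of 1.88, and 2 of them, H2-DMb1 and Ifi30, were called with all 4 tumours (0.48% of all genes). Without the fourth, 9 of 13 were called higher (5.49% of all genes) and the median was 2.58. By tumour, the list median was 1.61 to 2.83 in LAP B-ALL 1 to 3. It was also high in LAP preB-ALL 2 (2.65) and in the tumour labelled LAP preB-ALL 4 (2.12). Upstream sequences of 3 of these genes are shown because class II genes share X and Y boxes, the elements where the RFX and NF-Y factors assemble and recruit CIITA. They are the 120 bases before the start in RefSeq, build GRCm38.p6, at chr17:34287824-34287943 on the minus strand for H2-Aa, chr17:34305747-34305866 on the plus strand for H2-Eb1 and chr17:34153071-34153190 on the plus strand for H2-DMb1. Capitals mark matches to CTNGNAAC for the X box and to CCAAT, read as ATTGG on the other strand, for the Y box.
H2-Aa: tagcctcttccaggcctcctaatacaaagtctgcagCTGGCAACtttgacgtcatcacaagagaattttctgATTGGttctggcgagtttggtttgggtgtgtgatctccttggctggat
H2-Eb1: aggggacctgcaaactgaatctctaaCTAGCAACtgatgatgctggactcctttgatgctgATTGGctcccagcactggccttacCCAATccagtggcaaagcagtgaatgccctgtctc
H2-DMb1: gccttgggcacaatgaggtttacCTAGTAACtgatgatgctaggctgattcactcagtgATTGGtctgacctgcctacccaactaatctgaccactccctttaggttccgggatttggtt

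The X match began 84, 94 and 97 bases before the start and the nearest Y match downstream of it 48, 59 and 61 bases before. Searched on both strands in the 250 bases before the start, the X letters occurred in 10.9% of 32851 promoters, the Y letters in 33.8% and both in 3.75%. Of the 13 list genes 10 had a promoter sequence, and 5 of those held both, namely H2-Aa, H2-Eb1, H2-DMb1, H2-Ob and H2-Eb2. In H2-Eb2 the order was reversed, with the Y match 100 and the X match 12 bases before the start. The X letters were spelled after these sequences had been seen, and a match is a description of letters.

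H2-DMb1, whose upstream sequence is the third above, read 2.32, 2.39, 3.00 and 0.37 in LAP B-ALL 1 to 4 and -1.17, -0.31, -1.25, -0.95 and 0.31 in Blnk preB-ALL 1 to 5, with no overlap (difference 2.69, SE 0.60, adjusted p = 0.0454). Ifi30 read 1.18, 0.82, 0.90 and 0.70 against -1.75, -0.25, -0.88, -0.79 and 0.25 (difference 1.58, SE 0.36, adjusted p = 0.049). Both genes are among the 15 largest rises, which were picked for groups that do not overlap. Their separation was therefore set by that choice. Cd74, the invariant chain that escorts class II molecules, read 2.92, 2.34, 3.13 and 1.30 against -2.32, 0.18, -0.88, -1.34 and 1.12. The groups did not overlap, but Blnk preB-ALL 5 came close to the tumour labelled LAP B-ALL 4, and the difference of 3.07 (SE 0.76) had an adjusted p of 0.0587. Without that LAP B-ALL tumour it was 3.44 (adjusted p = 0.0208), and without Blnk preB-ALL 5 it was 3.51 (adjusted p = 0.031). H2-Aa, the class II alpha chain, read 3.29, 3.10, 4.09 and -0.10 in LAP B-ALL and ran from -2.39 to 2.02 in Blnk preB-ALL. It was called without the fourth tumour (3.60, SE 1.06, adjusted p = 0.0472) and not with it (2.70, SE 1.10, adjusted p = 0.175). H2-Eb1, H2-DMa and Ciita, the class II transactivator, behaved likewise, with differences without the fourth of 3.09, 3.15 and 2.58 (adjusted p of 0.044, 0.0166 and 0.0456). H2-Eb1 and Ciita are named because of the sequences above, after their values were seen.

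Surface genes of mature B cells mostly had positive differences. Their list median was 0.69 to 1.26 in LAP B-ALL 1 to 3, 0.31 in the tumour labelled LAP B-ALL 4 and 1.40 in LAP preB-ALL 2. Of 30 measured 26 had a positive difference, 0 were called with all 4 tumours by limma (1.45% of all genes) although 15 had an unadjusted p under 0.05 (21.2% of all genes), and 7 were called higher without the fourth (5.49% of all genes). Blk, a Src-family kinase of the B-cell receptor, is not part of this surface list. It read 3.20, 3.36, 2.79 and 2.36 in LAP B-ALL 1 to 4 and 0.15, -1.08, -1.60, -1.14 and 0.53 in Blnk preB-ALL 1 to 5. All 4 LAP B-ALL tumours were therefore high, yet the adjusted p was 0.0538 (difference 3.56, SE 0.85), and 0.0264 without the fourth (3.75, SE 0.95). Ms4a1, which encodes CD20, was also above every Blnk preB-ALL tumour in all 4, at 3.68, 2.96, 3.06 and 1.85, but ran from -4.69 to 1.28 in Blnk preB-ALL and was called in neither fit (4.18, SE 1.65, adjusted p = 0.165). Cd83, which stabilises class II at the surface, read 4.91, 3.89, 4.13 and 0.32 in LAP B-ALL and -0.78 to 1.95 in Blnk preB-ALL, and was called when the fourth was left out (4.27, adjusted p = 0.0338) but not with it (3.27, adjusted p = 0.14). The same held for the costimulator Cd80 (2.15), the homing receptor Gpr183 (2.35) and the adhesion molecule Cd2 (2.06). Cr2 and Fcer2a, the complement and IgE receptors of mature B cells, differed by -0.17 and -0.04 and were not called. The 8 plasma cell genes had 0 calls in both fits by limma (1.45% of all genes with all 4 tumours and 10.7% without the fourth). With all 4 tumours 0 had an unadjusted p under 0.05 (21.2% of all genes). So few genes cannot show a difference from those shares.

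Receptor signalling genes had 1 call of 17 with all 4 tumours (1.45% of all genes), Malt1, the protease that carries receptor signals to NF-kB (1.48, SE 0.32, adjusted p = 0.0406). It read 1.64, 1.63, 0.77 and 0.52 in LAP B-ALL 1 to 4 and -1.10 to 0.05 in Blnk preB-ALL. In the fit without the fourth tumour 4 were called higher and 1 lower (5.49% and 5.25% of all genes). The lower one was Inpp5d, the inhibitory phosphatase SHIP-1 (-0.70, adjusted p = 0.0169). Among the higher ones, Nfatc1, a calcium-driven factor, and Ptpn6, the phosphatase SHP-1, gave 2.32 (adjusted p = 0.00741) and 1.65 (adjusted p = 0.00743). Egr2, an early gene of receptor signalling, gave 3.55 (adjusted p = 0.0106), and read 3.67, 3.81 and 3.61 in LAP B-ALL 1 to 3 against -0.18 in the tumour labelled LAP B-ALL 4. Fos and Atf3, of the same immediate early list of 19, gave 1.25 and 0.95. Of 17 NF-kB genes 16 had a positive difference, with a median of 0.80, and Bcl3 was the 1 called, without the fourth (2.22, adjusted p = 0.0325), a share near the 5.49% of all genes.

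Interferon-inducible GTPases, which attack vacuoles of intracellular microbes, were higher as far as they were called. Gbp3 was the 1 call of 11 with all 4 tumours (1.51, SE 0.35, adjusted p = 0.049), beside 0.48% of all genes called higher. It read 1.26, 0.66, 0.88 and 0.91 in LAP B-ALL and -1.14 to 0.16 in Blnk preB-ALL. Without the fourth, 5 of 11 were called higher (5.49% of all genes), with Gbp2 at 2.88, Iigp1 at 3.10, Igtp at 2.14 and Irgm2 at 2.11. The median of the list was 1.51 with all 4 tumours. The 20 genes of the general interferon response had a median of 0.00 and 1 call, Rsad2, without the fourth (3.79, adjusted p = 0.0269), a share near the 5.49% of all genes.

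Of 25 measured genes that C/EBP factors are known to drive in inflammation, 0 were called with all 4 tumours by limma (1.45% of all genes) and 6 had an unadjusted p under 0.05 (21.2% of all genes), and the median difference was 0.06. In LAP B-ALL 1 to 3 alone, 3 were called higher (5.49% of all genes), the cytokine gene Il1b (1.48, adjusted p = 0.0228) and the chemokine genes Ccl3 (3.53, adjusted p = 0.0122) and Ccl4 (1.88, adjusted p = 0.0164). Ccl3 read 2.52, 4.85, 2.91 and -0.48 in LAP B-ALL 1 to 4 and -0.37 to 0.19 in Blnk preB-ALL. Lyz2, the myeloid lysozyme, differed by -0.08 (SE 0.45). The letters TTGCNNAA, a core of C/EBP sites, searched on both strands in the 250 bases before the start, occurred in 8.08% of 13605 tested genes with a promoter sequence. They occurred in 7.14% of the genes called higher (5 of 70) and 6.02% of those called lower (8 of 133) with all 4 tumours, and in 8.1% (60 of 741) and 5.66% (41 of 724) without the fourth.

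Of 31 replication and mitosis genes, 3 were called lower and 0 higher with all 4 tumours (0.971% and 0.48% of all genes). Those 3 were Bub1b, a kinase of the spindle checkpoint (2.00-fold lower, SE 0.19 on the log2 scale, adjusted p = 0.0254), Kif11, the spindle kinesin (-0.95, SE 0.22, adjusted p = 0.0482), and Cdc20, which activates the anaphase-promoting complex (-0.64, SE 0.13, adjusted p = 0.0312). Bub1b read -0.62, -1.02, -1.17 and -0.83 in LAP B-ALL 1 to 4 and -0.10 to 0.24 in Blnk preB-ALL, without overlap. Without the fourth tumour 4 of the list were called lower (5.25% of all genes), the same 3 and Gins2, a subunit of the replicative helicase (-0.92), and 1 higher (5.49%), Cdc6, which loads that helicase (1.13, adjusted p = 0.0337). Pdk1, which restrains entry of pyruvate into mitochondria, was the 1 call of 20 glycolysis and hypoxia genes with all 4 tumours (-1.14, SE 0.24, adjusted p = 0.033), beside 0.971% of all genes called lower. Without the fourth, Pdk1 (-1.22) and the glycolytic kinase gene Pgk1 (-0.70) were called lower and the hexokinase gene Hk1 higher (1.94, adjusted p = 0.02), beside 5.25% and 5.49% of all genes. The calls of Bub1b, Kif11, Cdc20 and Pdk1 with all 4 tumours, and those of Spi1, Malt1 and Gbp3, were each lost without at least 1 other tumour, with adjusted p up to 0.143 and no change of direction. Myc differed by 0.34 (SE 0.75, adjusted p = 0.832). Mycn was 8.20, 3.81 and 1.74 in Blnk preB-ALL 1, 4 and 5 and 3.88 in the tumour labelled LAP B-ALL 4, and between -0.39 and -0.03 in the other 5 of the 9. The 22 Myc and ribosome genes had a median of -0.40 with all 4 tumours. They had 0 calls in either fit by limma (1.45% of all genes with all 4 tumours and 10.7% without the fourth). With all 4 tumours 7 had an unadjusted p under 0.05 (21.2% of all genes).

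Survival and cytokine genes had 0 calls by limma with all 4 tumours (1.45% of all genes), and some were called without the fourth (10.7% of all genes). Bcl2 and Mcl1, which block apoptosis, gave 1.83 (adjusted p = 0.0185) and 1.41 (adjusted p = 0.0202), and their relative Bcl2a1a gave 3.30 (adjusted p = 0.0224). Bcl2 read 1.47, 1.40 and 0.66 in LAP B-ALL 1 to 3 and -1.63 in the tumour labelled LAP B-ALL 4, against -1.93 to 0.10 in Blnk preB-ALL. In the IL-7 and STAT5 list of 16, 5 were called higher and 1 lower (5.49% and 5.25% of all genes), among them the kinases Jak3 (0.63) and Pim2 (1.07) and the feedback gene Socs2 (-4.25, adjusted p = 0.0169). With all 4 tumours 6 of the 15 Bcl2 family genes and 9 of the 16 IL-7 and STAT5 genes had an unadjusted p under 0.05 (21.2% of all genes). Cdkn1a, the cell cycle inhibitor p21, gave -1.58 (adjusted p = 0.0238) without the fourth tumour.

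Markers of other blood cells also differed between tumours, and their lists did not all divide the tumours in the same way. Red-cell and platelet markers were high in LAP B-ALL 1 to 3, where the list of 13 had medians of 3.20 to 4.36, and in the tumour labelled LAP preB-ALL 4 (4.16). The list median was 0.05 in the tumour labelled LAP B-ALL 4 and -0.20 to 0.30 in Blnk preB-ALL. Some red-cell genes in the tumour labelled LAP B-ALL 4 were still above every Blnk preB-ALL tumour. These included Hba-a1 (2.55, against -1.55 to 1.57), Slc4a1 (1.23, against -0.75 to 0.87) and Car1 (0.77, against -0.14 to 0.14). Others, such as Epb42 (-0.02, against -0.19 to 0.27), were not. All 13 had a positive difference. With all 4 tumours 0 were called by limma (1.45% of all genes), although 9 had an unadjusted p under 0.05 (21.2% of all genes). Without the fourth, 8 were called higher (5.49% of all genes). Alas2, the enzyme that starts haem synthesis in red-cell precursors, read 5.87, 5.79, 6.65 and 2.14 in LAP B-ALL 1 to 4 and -0.97 to 0.60 in Blnk preB-ALL (5.29, SE 1.25, adjusted p = 0.0525). Slc4a1, the band 3 anion exchanger of red cells, gave 7.62 (adjusted p = 0.0106) without the fourth, the haemoglobin gene Hba-a1 5.14 (adjusted p = 0.0293) and Klf1, the master factor of red-cell genes, 5.84 (adjusted p = 0.00878). Many of the 15 largest rises of that fit were red-cell genes. They included Slc4a1, Alas2, Car1 and Klf1, and also Hemgn, Rhag, Epb42, Ermap and Rhd, at 7.76, 7.14, 5.82, 5.62 and 5.59. Tal1 and Lmo2, factors of stem cells and of red-cell precursors, gave 4.32 and 2.47.

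Granulocyte markers were high in all 4 LAP B-ALL tumours (medians 0.96 to 1.08 in LAP B-ALL 1 to 3 and 1.91 in the tumour labelled LAP B-ALL 4). They were higher still in Blnk preB-ALL 5 (2.89), against -0.64 to 0.06 in the other Blnk preB-ALL tumours. Of 17, 0 were called in either fit by limma (1.45% of all genes with all 4 tumours and 10.7% without the fourth). With all 4 tumours 4 had an unadjusted p under 0.05 (21.2% of all genes). Monocyte markers had medians of 0.73 to 1.56 in LAP B-ALL 1 to 3, 0.03 in the fourth and -0.54 to 0.86 in Blnk preB-ALL. Of 21, Csf1r, the receptor of a monocyte growth factor, and Fcgr4, an IgG receptor, were called without the fourth (2.14 and 4.36), beside 5.49% of all genes called higher in that fit, a share that also stands beside the counts of the next lists. T-cell markers had medians of 0.63 to 2.19, -0.01 and -0.37 to 1.29, with Cd5 the 1 call of 15 without the fourth (2.89), and NK-cell markers 0.09 to 1.29, -0.08 and -0.22 to 0.83, with Gzmb the 1 call of 10 (4.04). Dendritic cell markers gave 3 calls of 8 without the fourth, Xcr1, Batf3 and Itgax, at 1.05, 1.18 and 0.92, although the medians of that list were 0.13 to 0.43 in LAP B-ALL 1 to 3 and -0.23 to 0.51 in Blnk preB-ALL. Class II, Cd83, Spi1, Ccl3 and the GTPases are also made by monocytes and dendritic cells, and the part of these cells in those results was not tested. Likewise the part of red-cell precursors in the low values of the pre-B genes was not tested.

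**Figure D5:**
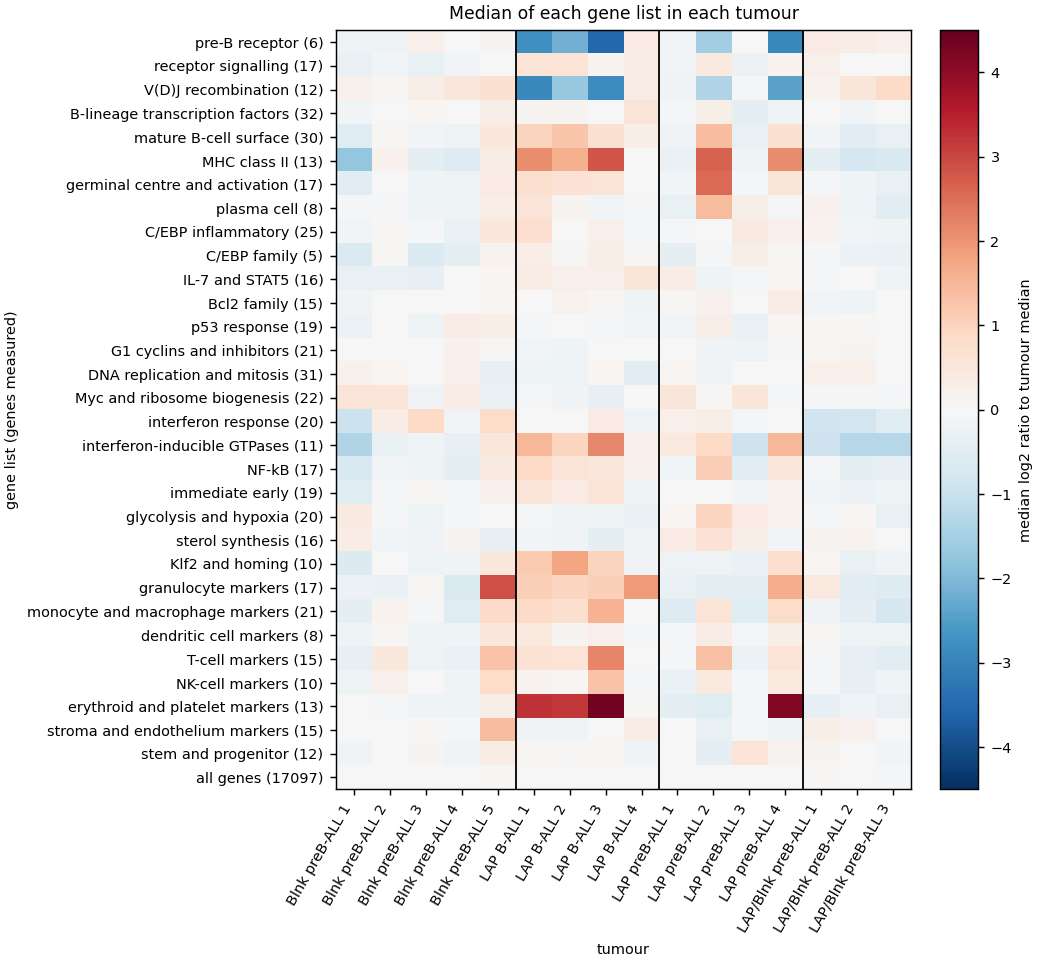
Median log2 ratio to the tumour median (colour) of the measured genes of 31 gene lists and of all genes (rows, number of genes in brackets) in each of the 16 tumours (columns). The pre-B receptor list and the list of recombination and early pro-B genes (marked V(D)J recombination) are low and the class II and erythroid lists high in LAP B-ALL 1 to 3 and in the tumour labelled LAP preB-ALL 4, and the tumour labelled LAP B-ALL 4 has medians of 0.38 and 0.03 for the pre-B receptor and class II lists. LAP preB-ALL 2 has medians of -1.58 and -1.35 for the pre-B receptor and recombination lists, 2.65 for class II and -0.55 for the erythroid list.

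Tumours of the same genotype but the other label gave a second comparison, which shares the LAP B-ALL samples with the first. Between LAP B-ALL and LAP preB-ALL, 0 genes were called by limma, and 1886 (11%) had an unadjusted p under 0.05. Without the tumour labelled LAP B-ALL 4, 5 genes (0.0292%) were called, all higher, Zfp982 (3.58, SE 0.35, adjusted p = 0.00306), Nacc2 (2.91), Fam169b (1.47), Tcstv1 (1.06) and Anks1b (0.94). Without the tumour labelled LAP preB-ALL 4, 291 were called. Vpreb1 differed by -2.24 (adjusted p = 0.724), H2-Eb1 by 0.71 (adjusted p = 0.813) and Ciita by 0.57 (adjusted p = 0.825) between these groups with all tumours.

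By chromosome, the median of a tumour's genes minus that of its other autosomes stayed between -0.0677 and 0.0216 in LAP B-ALL 1 to 3, and ran from -0.1287 (chromosome 19) to 0.0956 (chromosome 11) in the tumour labelled LAP B-ALL 4. Among Blnk preB-ALL 1 to 5, chromosome 12 stood at 0.1002, 0.0795, -0.0459, -0.0281 and 0.0522, and chromosome 19 at 0.0535, -0.0803, 0.0633, 0.0659 and -0.0573. Chromosome 16 stood at 0.0844, 0.0905, 0.0866, -0.0102 and -0.0126. Chromosome 14 reached 0.0913 in Blnk preB-ALL 4 and chromosome 15 reached 0.0943 in Blnk preB-ALL 2. Chromosome 12 held 20 called genes of 574 (3.48%) and chromosome 19 held 19 of 568 (3.35%), of which 18 each were lower in LAP B-ALL, against 1.45% over all genes. Kif20b, Kif11 and Gfra1 lie on chromosome 19. Chromosome 16, where Vpreb1, Vpreb2 and Erg lie, held 10 called genes of 561 (1.78%), all lower.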

How the data were processed

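Total RNA of 16 mouse tumours and 8 cell-line arrays was measured on Affymetrix arrays, and the 16 tumours were used here. The authors processed the arrays with MAS5, per the submitters' processing notes, which give no version, and deposited 1 log ratio per probe set and array. These deposited ratios, taken here as log2 because the base is not stated, have a median of 0 over the tumours for each probe set, and separately over the cell-line arrays, so levels, detection and signal over background cannot be read from them. Of 45141 probe sets, 28898 had 1 gene symbol in the platform annotation of 2016, 551 had several and 15692 had none; 28689 of the symbols matched RefSeq. A gene was represented by its probe set with the largest spread, which gave 17097 genes, 7180 of them with several probe sets.

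limma 3.58.1 (R 4.3.3; lmFit and eBayes) was fitted to all 16 tumours with 1 mean per group, and p-values were adjusted over all genes by Benjamini-Hochberg with a threshold of 0.05. Every adjusted p in the text is from limma unless a permutation test is named. Cebpb and Blnk probe sets were compared with an exact permutation test over 126 splits. The fit was tested on simulated data. The text names the 15 largest differences in each direction among called genes whose groups do not overlap. Unnamed transcripts and rearranged immunoglobulin and T-cell receptor segments were left out of these (17 of the called genes). It also names up to 4 genes of each of 32 lists (542 genes, 476 measured) and a panel of marker genes. The same rule applied to the fit without the tumour labelled LAP B-ALL 4 names further genes, chosen after the values of that tumour were seen. Members and lists were chosen with earlier results of these data known. Promoters came from RefSeq (GRCm38.p6). The number of arrays limits the precision. Alternatives were other probe-set rules, normalizations, variance models, sample sets, each tumour left out, a replicate block and, added after the data were seen, sex as a term.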

Additional observations from a re-analysis of the deposited data

Results flagged for a closer look

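Within groups, 1 tumour stood apart from the others of its group for 15 of 122 sets of values (61 genes in each of the LAP B-ALL and Blnk preB-ALL groups), by a gap that is large against the range of the group. The limit was taken as one that about 5% of groups pass by chance, a setting not computed from these data. The genes are not independent and include some named for their differences, so the count cannot be set against that share. In 8 of the 15 the tumour labelled LAP B-ALL 4 stood apart. For the pre-B and recombination genes it read 0.14 for Vpreb1 (the others -8.97 to -8.78), 2.00 for Rag1 (-6.62 to -6.11), 2.13 for Rag2 (-3.99 to -3.79) and -0.038 for Erg (-4.30 to -3.59). It also read 0.64 for Pira1 (4.03 to 4.09), -0.10 for Gfra1 (-3.86 to -3.34), -0.24 for Dnajc21 (-1.92 to -1.77) and 3.88 for Mycn (-0.13 to -0.03). For Epha2, LAP B-ALL 2 read -0.86 and the others -0.76 to -0.75.

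Among the Blnk preB-ALL tumours, number 5 read 3.57 for the granulocyte enzyme gene Mpo (the others -0.25 to 0.07), 0.62 for Fcer2a (-0.14 to 0.04) and 0.41 for Wdr61 (-0.72 to -0.41). Blnk preB-ALL 2 read -2.13 for Ell2 (-0.81 to -0.46) and -0.45 for Vpreb1 (-0.01 to 0.16), and Blnk preB-ALL 3 read 5.79 for Dntt (0.04 to 0.97).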

How the results depend on the processing

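The 248 calls between LAP B-ALL and Blnk preB-ALL became 107 with the mean of a gene's probe sets, 91 with its first probe set, 411 with only these groups in the fit and 3619 with array weights (1804 higher, 1815 lower), which gave the tumour labelled LAP B-ALL 4 a weight of 0.377 and LAP B-ALL 1 to 3 weights of 1.42 to 2.25. Leaving out each tumour gave 47 to 1835. Settings chosen after seeing the data were sex as a term (74), sex as a term without the tumour labelled LAP B-ALL 4 (1209), and only these groups without that tumour and without the sex term (2467). A variance trend (291), quantile normalization (181), median centring (264) and the more variable genes alone (303) stayed within 1.5 times. Between LAP B-ALL and LAP preB-ALL the 0 calls became 0 to 291 when each tumour was left out. After each group's mean was subtracted gene by gene, same-numbered LAP B-ALL and Blnk preB-ALL tumours correlated at 0.0652, 0.0817, -0.00905 and 0.215. Such coefficients cannot tell whether the numbers pair the samples, which the labels do not say. With a replicate block of tumours 1 to 4, limma made 0 calls, with 4150 genes at an unadjusted p under 0.05. No called value of a named gene reversed. Over all named genes and settings 3461 values kept their side of the threshold, 405 gained it and 331 lost it, and the causes were not tested. The Cebpb and Blnk probe sets kept their direction with each tumour left out.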
